A study of Mus musculus with 24 samples.

Results

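The genes of fatty acid uptake and oxidation were followed in dystrophic mouse muscle as a set of 33 genes selected by name. All 33 were among the 25369 genes listed in the deposited tables, and all had enough reads to be tested, as 14789 genes did. The muscle was the left quadriceps at 25 weeks of age. CMD mice had Lama2-CMD, a form of congenital muscular dystrophy in which a laminin chain of the muscle basement membrane is mutated. The allele is not given in the sources used here. Their WT counterparts came from the same 4 backgrounds, which are C57BL/6J (called B6), the BXD-67 and BXD-87 lines (called 67 and 87, with the strain labels CMD-67 and CMD-87 for CMD and WT mice alike) and DBA/2J (called D2). BXD lines are inbred mosaics of B6 and D2. Each of the 8 groups held 3 libraries, which are numbered 4 to 6 for B6 CMD, 1 to 3 for B6 WT, 10 to 12 for 67 CMD, 7 to 9 for 67 WT, 16 to 18 for 87 CMD, 13 to 15 for 87 WT, 22 to 24 for D2 CMD and 19 to 21 for D2 WT.

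Muscle takes up fatty acids that lipoprotein lipase (Lpl) frees from circulating triglyceride. Cd36 and Slc27a1 carry them across the membrane, Fabp3 binds them in the cytosol and Acsl1 couples them to coenzyme A. The carnitine shuttle, with Cpt1b at its entry in muscle, moves the acyl groups into the mitochondrial matrix, where dehydrogenases, hydratases and thiolases shorten them and pass electrons to the respiratory chain through electron transfer flavoprotein. The nuclear receptors Ppara and Ppard switch on many of these genes, and the kinase Pdk4 closes pyruvate dehydrogenase, so that fat replaces glucose as fuel. Slow and oxidative fibres hold more of this machinery than fast glycolytic ones.

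Hadha and Hadhb encode the alpha and beta subunits of the mitochondrial trifunctional protein, which carries out the last steps of long-chain oxidation. In the RefSeq table of GRCm38.p6 they lie head to head, with starts 273 bases apart on opposite strands, so that a single stretch is upstream of both. That build is older than the GRCm39 of the deposited tables, and its coordinates were not carried over. The stretch is shown first because it serves a pair of members, and is followed by 4 promoters that hold the hexamer AGGTCA nearest to the start, which nuclear receptors such as the PPARs bind. All are printed 5′ to 3′ on the strand of the named gene for the 250 bases before its start, with the hexamer on either strand in capitals.
Hadha, chr5:30154981-30155230, minus strand: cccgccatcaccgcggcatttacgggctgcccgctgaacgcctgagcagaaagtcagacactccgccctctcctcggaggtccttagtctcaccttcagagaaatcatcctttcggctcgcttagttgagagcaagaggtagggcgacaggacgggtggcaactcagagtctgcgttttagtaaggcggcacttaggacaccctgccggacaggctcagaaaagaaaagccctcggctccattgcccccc
Acadvl, chr11:70015429-70015678, minus strand: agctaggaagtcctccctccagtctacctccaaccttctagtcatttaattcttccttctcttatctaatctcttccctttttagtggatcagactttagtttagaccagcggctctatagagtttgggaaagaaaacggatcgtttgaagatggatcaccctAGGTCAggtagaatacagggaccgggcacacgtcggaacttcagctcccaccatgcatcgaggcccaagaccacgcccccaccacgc
Echs1, chr7:140116422-140116671, minus strand: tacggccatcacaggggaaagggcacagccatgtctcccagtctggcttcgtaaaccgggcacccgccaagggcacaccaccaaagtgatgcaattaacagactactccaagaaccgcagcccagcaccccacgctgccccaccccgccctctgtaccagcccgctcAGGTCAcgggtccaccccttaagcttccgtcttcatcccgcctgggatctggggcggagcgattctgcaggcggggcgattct
Cpt1a, chr19:3323051-3323300, plus strand: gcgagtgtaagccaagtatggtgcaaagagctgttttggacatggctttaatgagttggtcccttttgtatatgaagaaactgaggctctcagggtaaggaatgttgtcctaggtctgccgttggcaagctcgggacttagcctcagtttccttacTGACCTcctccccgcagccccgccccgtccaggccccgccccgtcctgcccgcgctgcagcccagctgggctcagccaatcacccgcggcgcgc
Ucp3, chr7:100472741-100472990, plus strand: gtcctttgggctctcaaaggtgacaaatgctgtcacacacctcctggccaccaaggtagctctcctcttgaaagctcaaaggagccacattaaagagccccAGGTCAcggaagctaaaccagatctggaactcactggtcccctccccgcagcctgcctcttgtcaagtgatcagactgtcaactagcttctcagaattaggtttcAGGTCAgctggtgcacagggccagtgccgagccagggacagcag
A promoter window was given for 27 of the 33 genes, in 31 windows. Acat1, Decr1, Acaa2, Cpt1b, Crat and Lpl were not matched. The hexamer AGGTCA, searched on both strands of the full 300-base windows, was in 6 of the 31 windows (19.4%), those of Acadm, Acadvl, Cd36, Cpt1a, Echs1 and Ucp3. It was in 16.3% of all 32851 promoter windows in the table. The site of Acadvl lay 87 bases from the start, that of Echs1 83 and that of Cpt1a 94, and Ucp3 held 2 sites. The direct repeat of AGGTCA with 1 base between the copies, the exact form of the PPAR response element, was in 0 of the 31 windows and in 13 of the 32851. Only exact copies were searched. With 0.04% of all windows holding one, 31 windows cannot show whether these genes lack such elements. These are matches of letters and draw nothing about binding.

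Total exon reads ran from 32292613 to 51715975 per library. The mutated gene Lama2 fell in CMD in B6 and 87 and passed no test in 67 or D2. It averaged 21.2 ± 4.49 CPM (counts scaled by normalised library size; mean ± SD, n = 3 each here and below) in B6 CMD and 42.6 ± 7.07 in B6 WT, and 16.3 ± 3.29 in 87 CMD and 30.2 ± 4.78 in 87 WT. It averaged 27.8 ± 7.06 CPM in 67 CMD and 26.9 ± 2.29 in 67 WT, and 27.0 ± 3.26 in D2 CMD and 35.0 ± 9.84 in D2 WT. In 4 D2 libraries the Y-linked reads went against the sex label, namely CMD libraries 22 and 24 and WT libraries 19 and 21, so sex was left out of the fit and entered as an alternative. By those reads D2 WT held no male and D2 CMD held males 22 and 24, so sex and genotype overlap in D2. Libraries 22 and 24 are labelled female and 19 and 21 male, so the mismatch is the same for wrong sex labels and for an exchange of libraries between D2 CMD and D2 WT, and Lama2 does not tell the D2 groups apart. As a check of the genotype labels, 406 genes that rose in all of B6, 67 and 87, none of them among the 33, had a median log2 difference from the WT libraries of those backgrounds of 0.74, 1.18 and 1.09 in D2 CMD libraries 22, 23 and 24, against 0.31, 0.23 and 0.36 in D2 WT libraries 19, 20 and 21 (on log2 of CPM plus 1). The 485 genes that fell in those 3 backgrounds stood at -0.50, -0.84 and -0.66 in D2 CMD, against -0.20, -0.02 and -0.26 in D2 WT. In both sets every D2 CMD library lay beyond every D2 WT library in the direction of the other CMD groups, with library 22 the nearest to WT among the D2 CMD libraries. Sex was uneven in the other backgrounds too. In 67 all CMD libraries were female, and WT library 7 was the single male. In 87 CMD library 16 was female and CMD libraries 17 and 18 male, with WT library 13 male. In B6 CMD libraries 4 and 6 and WT library 1 were male. Library 16 of 87 CMD stood apart: its 10 stress and handling genes, metallothioneins and atrophy ligases among them, summed to 9947 CPM, against 727 and 793 CPM in 87 CMD libraries 17 and 18. Of these 10 genes 10 rose in 87, 5 in 67 and 5 in B6, and none passed in D2, where 1 had an unadjusted edgeR p under 0.05. Their sums were 736, 505 and 563 CPM in 87 WT, so library 17 lay within the WT range. In B6 they were 671, 840 and 598 CPM in CMD, against 1159, 1025 and 744 CPM in WT. In 67 they were 821, 645 and 1369 CPM in CMD, against 394, 546 and 585 CPM in WT. In D2 they were 532, 644 and 696 CPM in CMD, against 525, 967 and 783 CPM in WT.

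Per transcript length, the genes differed widely in level. In the 12 WT libraries Fabp3 had a median of 500.3 TPM (a unit that allows for transcript length), Pdk2 499, Etfb 303, Hadhb 270.1 and Acadl 242. At the other end stood Ppard with 19.02 TPM, Acot2 with 8.65, the liver-type Cpt1a with 3.99 and Ppara with 1.65, while the muscle-type Cpt1b had 154 TPM. The counts of Cpt1b are uncertain, because in the lowest library 8.81% of its reads were unique. The lowest unique share was 35.0% for Etfb, 83.7% for Acot2 and 90.9% for Acadvl, and all other genes were above that.

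With the libraries taken by their genotype labels, most of these genes had positive CMD effects in 87 and negative ones in D2, the background where 4 of 6 libraries went against their sex label. With edgeR and Benjamini-Hochberg adjustment over all tested genes at a threshold of 0.05, 27 of the 33 genes rose in 87, 8 in 67 and 3 in B6, and none of the 33 rose in D2. The shares of all tested genes that rose were 11.5% in 87, 11.4% in 67, 8.07% in B6 and 11.2% in D2. In D2, 7 of the 33 fell, where 9.03% of all tested genes did. Ppard fell in B6 (10.4% of all tested genes), and none fell in 67 (10.3%) or 87 (9.38%). The median log2 fold change over the 33 genes, CMD over WT, was 0.34 in B6, 0.62 in 67, 1.22 in 87 and -0.57 in D2, while the median of all tested genes lay between 0.00 and 0.03.

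Counts of 0 held at the adjusted threshold with other tools. In D2 0 of the 33 genes were raised at an unadjusted p under 0.05 in edgeR, and 0 in DESeq2. In 67 and 87 0 were lowered at an unadjusted p under 0.05, and 0 in DESeq2. The fold was positive in 30 of the genes in B6, 32 in 67, 31 in 87 and 2 in D2. These signs and sizes depend on how libraries are scaled. In the deposited TPM, scaled otherwise, the mean of most of the 33 was still lower in D2 CMD than in D2 WT. For others it was higher, as for Acsl1 (178 TPM in D2 WT and 216 in D2 CMD), Cd36 (146 and 158) and Slc27a1 (62.7 and 80.4). Acads had 113 and 101 TPM. The TPM were not tested. It was largest in 87 for 29 genes (29% of all tested genes) and smallest in D2 for 31 (23.3%), and 30 genes were positive in 87 and negative in D2 (18.7%). Of the 33, Cpt1a, Crat, Ppara and Ucp3 passed in no single background. Averaged over the 4 backgrounds, 24 genes rose and Ppard and Pdk2 fell, where 25.4% of all tested genes rose and 23.4% fell. That average runs over effects of opposite sign, as for Fabp3, whose mean log2 fold change was 1.14 ± 0.27.

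**Figure D1:**
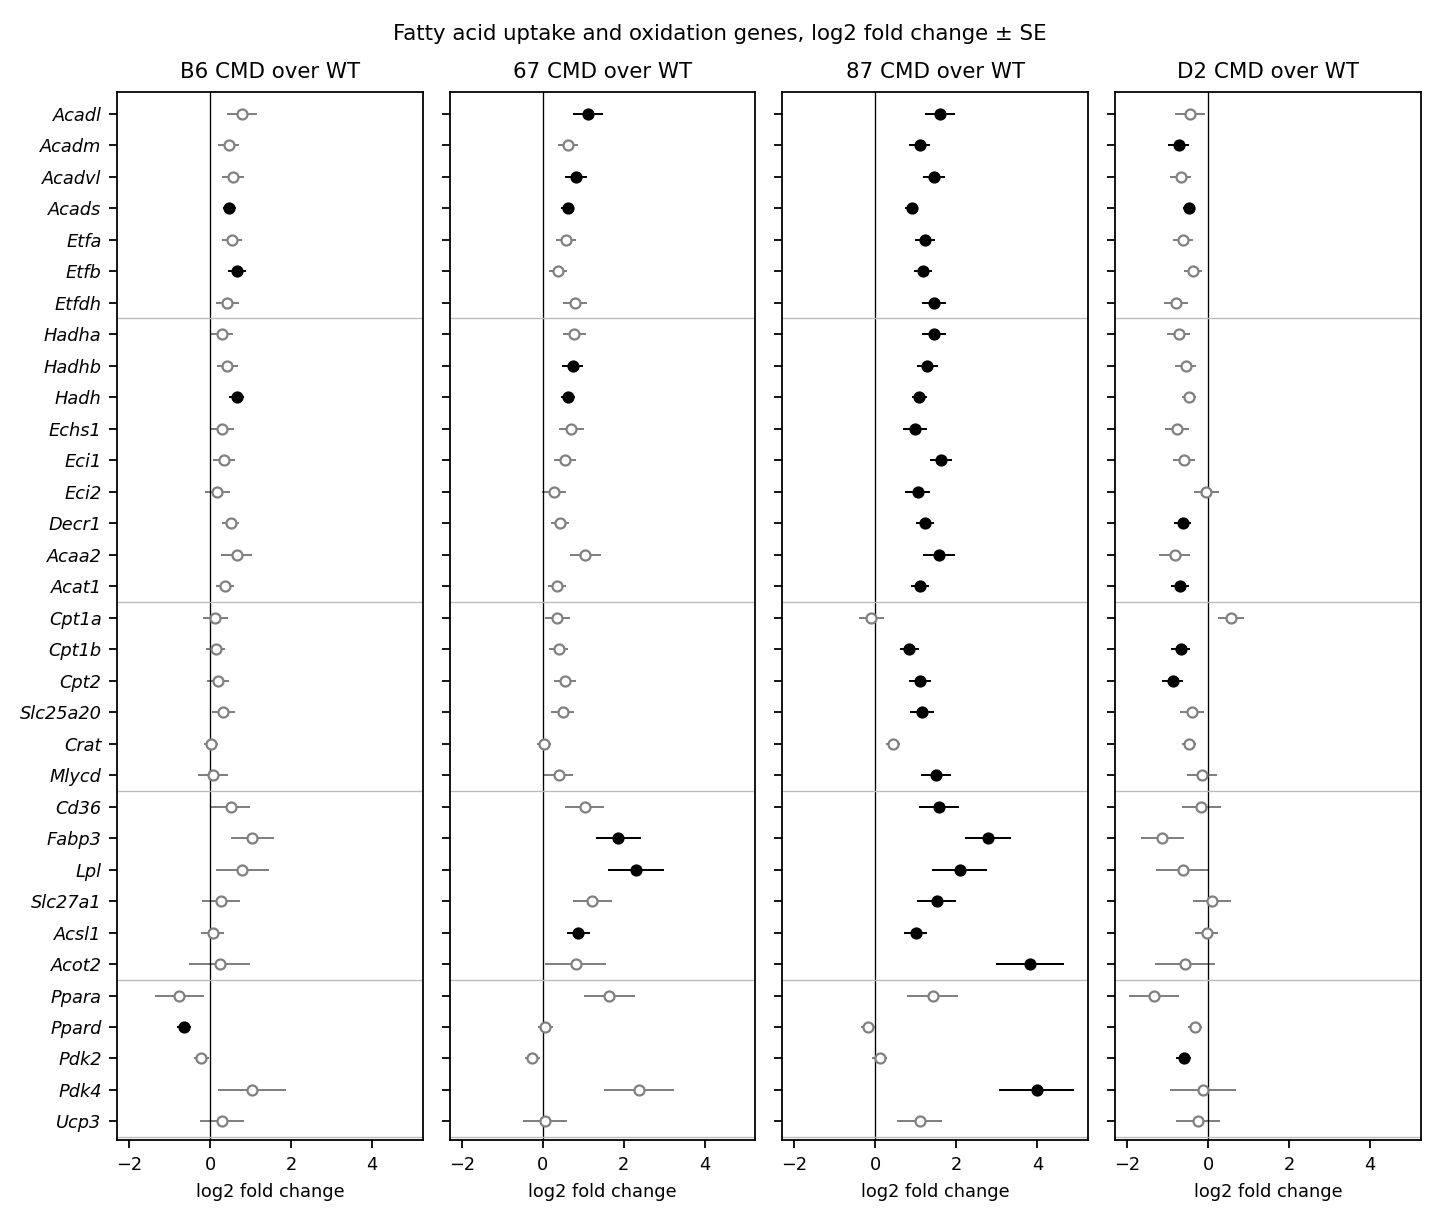
Log2 fold change, CMD over WT, of each of the 33 genes in B6, 67, 87 and D2 (x axis) with its standard error as a bar. Filled points have an adjusted p under 0.05 in edgeR. Points in 87 lie to the right of 0 for 31 genes and points in D2 to the left for 31.

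The acyl-CoA dehydrogenases take the first step of each round of oxidation, Acadvl, Acadl, Acadm and Acads on chains from very long to short, and Etfa, Etfb and Etfdh carry the electrons off. All 7 genes of this group rose in 87, 3 rose in 67 (Acadl, Acadvl and Acads), 2 rose in B6 (Acads and Etfb), and 2 fell in D2 (Acadm and Acads). Acads was the single gene of the 33 past the threshold in all 4 backgrounds. In 87 it had 113, 106 and 110.1 CPM in CMD libraries, against 52.3, 59.9 and 65.0 CPM in WT libraries, a log2 fold change of 0.89 ± 0.16 (SE here and below; adjusted p = 0.000973). The CMD libraries of 87 lay close together and far above all 87 WT libraries.

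In 67 Acads had 62.5, 87.7 and 90.7 CPM in CMD, against 48.9, 55.7 and 53.0 CPM in WT, a log2 fold change of 0.61 ± 0.16 (adjusted p = 0.011). In B6 it had 74.1, 86.1 and 90.6 CPM in CMD, against 51.9, 55.2 and 73.3 CPM in WT (0.47 ± 0.16, adjusted p = 0.0444). In both the lowest CMD library was above the highest WT library. In D2 the order turned, with 84.3, 77.1 and 60.7 CPM in CMD, against 99.0, 93.1 and 116 CPM in WT, a log2 fold change of -0.47 ± 0.16 (adjusted p = 0.0419). All D2 CMD libraries were below all D2 WT libraries, and the D2 WT libraries were the highest WT libraries of any background.

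Acadvl, which handles the longest chains at the inner membrane, had 813, 450.1 and 516 CPM in 87 CMD, against 198, 227 and 232 CPM in 87 WT (log2 fold change 1.44 ± 0.27, adjusted p = 0.00134). It had 256, 369.6 and 458 CPM in 67 CMD, against 164, 253 and 193 CPM in 67 WT (0.83 ± 0.27, adjusted p = 0.033). In D2 it had 254, 233 and 182 CPM in CMD, against 331, 317 and 424 CPM in WT, groups that did not overlap but missed the threshold (-0.68 ± 0.27, adjusted p = 0.0756). The promoter of Acadvl is among those printed above. In B6 its values overlapped, with 338, 356 and 423 CPM in CMD and 166, 232 and 358 CPM in WT (adjusted p = 0.145).

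Acadl, the long-chain dehydrogenase, rose in 87 by 1.60 ± 0.38 on the log2 scale and in 67 by 1.12 ± 0.37 (adjusted p = 0.00588 and 0.0374). Acadm, the medium-chain dehydrogenase, rose in 87 by 1.09 ± 0.26 and fell in D2 by 0.73 ± 0.26 (adjusted p = 0.00572 and 0.049). The flavoprotein subunits Etfa and Etfb rose in 87 by 1.22 ± 0.26 and 1.18 ± 0.23, and Etfdh, which hands the electrons to ubiquinone, by 1.44 ± 0.30. In D2 the log2 fold changes of these 3 were -0.62, -0.37 and -0.80, and none passed (adjusted p = 0.0864, 0.248 and 0.0592).

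The second group holds the hydratases, hydroxyacyl dehydrogenases and thiolases, with the isomerases and the reductase needed for unsaturated chains. All 9 genes rose in 87, Hadhb and Hadh rose in 67, Hadh rose in B6, and Decr1 and Acat1 fell in D2. Hadh, the short- and medium-chain hydroxyacyl dehydrogenase, had 238, 199 and 249.8 CPM in 87 CMD, against 106, 114 and 104 CPM in 87 WT (log2 fold change 1.08 ± 0.19, adjusted p = 0.000695). It had 150.0, 187 and 180.1 CPM in 67 CMD, against 109, 115 and 111 CPM in 67 WT (0.62 ± 0.18, adjusted p = 0.0211). Both sets of CMD libraries stood clear of their WT libraries.

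In B6 Hadh had 183, 189 and 208 CPM in CMD, against 106, 101 and 161 CPM in WT (0.66 ± 0.18, adjusted p = 0.0192). In D2 it had 189.5, 155 and 112 CPM in CMD, against 220.2, 173 and 241 CPM in WT (-0.47 ± 0.18, adjusted p = 0.0726), and the groups overlapped by CMD library 22 and WT library 20. Eci1, an enoyl-CoA isomerase, had 199, 97.1 and 132 CPM in 87 CMD, against 37.0, 50.3 and 51.8 CPM in 87 WT (1.62 ± 0.28, adjusted p = 0.000733). Its lowest 87 CMD library was well above its highest 87 WT library. Eci1 had 59.0, 57.1 and 40.1 CPM in D2 CMD, against 74.3, 69.2 and 93.9 CPM in D2 WT, groups that did not overlap but missed the threshold (adjusted p = 0.121). It had 66.9, 97.2 and 134 CPM in 67 CMD, against 61.4, 73.8 and 68.0 CPM in 67 WT, and 82.6, 98.5 and 97.6 CPM in B6 CMD, against 53.6, 63.2 and 104 CPM in B6 WT, and the groups overlapped in both.

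Decr1, the dienoyl-CoA reductase, had 266, 169.5 and 211 CPM in 87 CMD, against 88.3, 83.9 and 103 CPM in 87 WT (1.23 ± 0.22, adjusted p = 0.000973). In D2 it had 107, 102 and 60.2 CPM in CMD, against 140.0, 129 and 148 CPM in WT (-0.63 ± 0.22, adjusted p = 0.0472). Acat1, a thiolase that also serves ketone use, had 178, 148 and 127 CPM in D2 CMD, against 235, 228 and 268 CPM in D2 WT (-0.69 ± 0.22, adjusted p = 0.0357). Neither gene overlapped between the D2 groups, and Acat1 rose in 87 by 1.09 ± 0.22 (adjusted p = 0.00235), with 468, 264 and 295 CPM in 87 CMD, against 144, 175 and 164 CPM in 87 WT. Acat1 had 147, 206 and 241 CPM in 67 CMD, against 144, 167 and 154 CPM in 67 WT, and 202, 216 and 238 CPM in B6 CMD, against 129.9, 151 and 230.1 CPM in B6 WT, with overlap in both. Decr1 had 97.4, 127 and 145 CPM in 67 CMD, against 78.7, 105 and 92.5 CPM in 67 WT, which overlapped, and 118, 119.5 and 145 CPM in B6 CMD, against 75.9, 76.7 and 117 CPM in B6 WT, which did not (adjusted p = 0.112).

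The subunits Hadha and Hadhb, whose shared upstream stretch is printed above, had log2 fold changes close to each other in every background. In 87 they rose by 1.44 ± 0.29 and 1.28 ± 0.26 (adjusted p = 0.00204 and 0.00208). In 67 Hadhb rose by 0.74 ± 0.26 (adjusted p = 0.0447), while Hadha, at 0.78 ± 0.29, missed the threshold (adjusted p = 0.0573). In B6 they stood at 0.28 and 0.42, and in D2 at -0.73 and -0.56, and neither passed in either. Acaa2, the matrix thiolase, Echs1, the short-chain hydratase, and Eci2, a further isomerase, rose in 87 by 1.58 ± 0.39, 0.98 ± 0.30 and 1.04 ± 0.30.

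**Figure D2:**
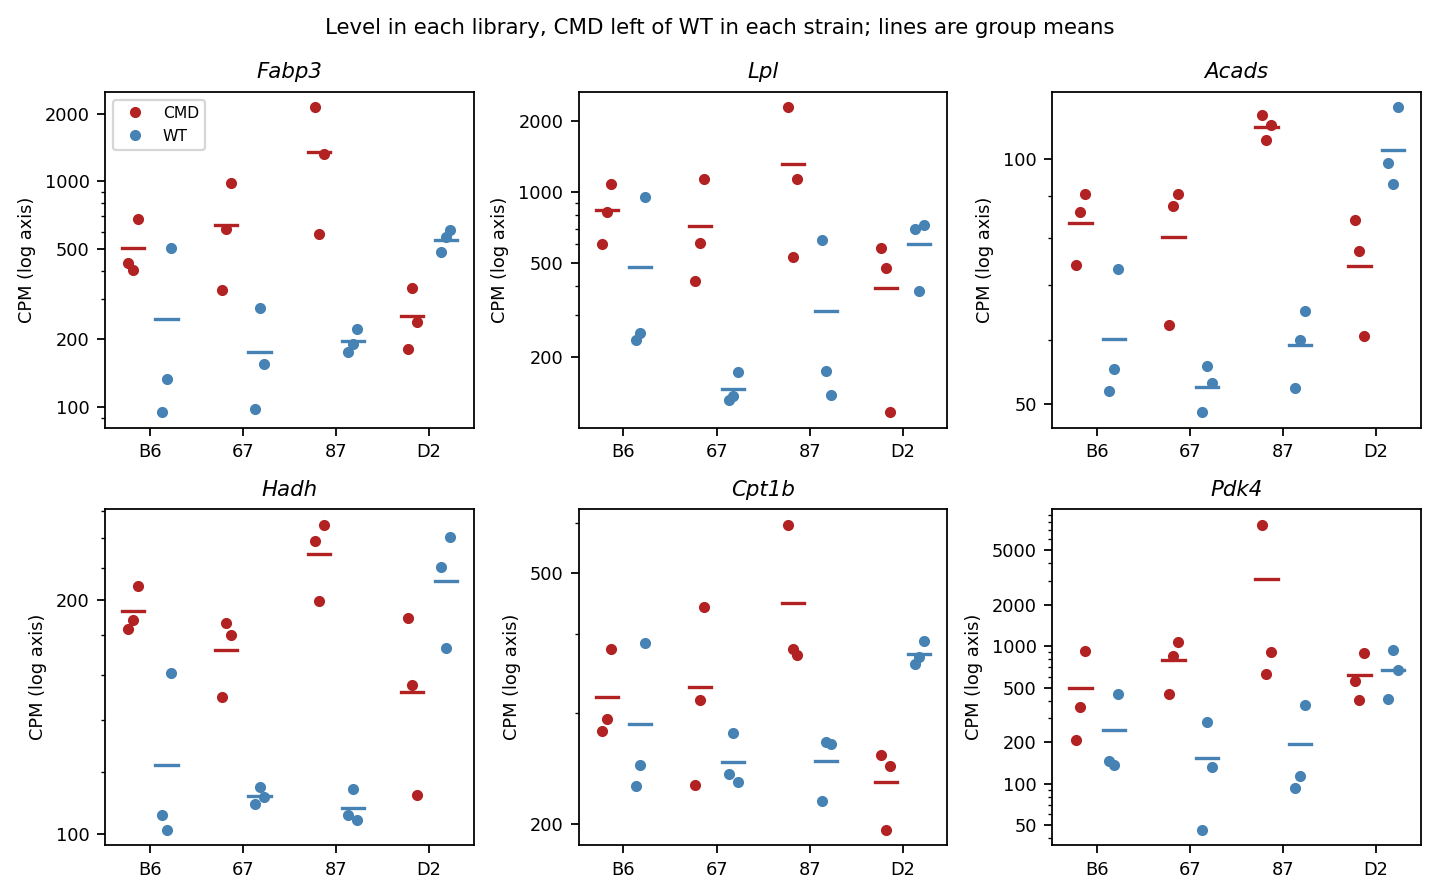
CPM on a log axis in each library for Fabp3, Lpl, Acads, Hadh, Cpt1b and Pdk4, by background, with CMD libraries left of WT libraries and lines at the group means. In Acads all 87 CMD points (106 to 113 CPM) lie above all 87 WT points (52.3 to 65.0 CPM), and all D2 CMD points (60.7 to 84.3 CPM) below all D2 WT points (93.1 to 116 CPM).

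Of the 6 genes of the carnitine shuttle and malonyl-CoA, 4 rose in 87 and 2 fell in D2. None of the 6 passed in B6 or 67 with edgeR, where 0 and 0 had an unadjusted p under 0.05 and DESeq2 called 0 and 0. Cpt2, which reforms acyl-CoA in the matrix, had 59.2, 61.3 and 45.4 CPM in D2 CMD, against 97.1, 89.0 and 119 CPM in D2 WT (log2 fold change -0.88 ± 0.27, adjusted p = 0.0267). The groups were far apart, and it was the member with the smallest p in D2. In 87 Cpt2 had 175, 88.7 and 108 CPM in CMD, against 54.0, 58.2 and 61.2 CPM in WT (1.10 ± 0.27, adjusted p = 0.00723). It had 56.6, 69.8 and 100.3 CPM in 67 CMD, against 45.8, 57.1 and 52.6 CPM in 67 WT, and 62.5, 71.9 and 90.0 CPM in B6 CMD, against 47.0, 53.4 and 96.6 CPM in B6 WT, and in both the groups overlapped.

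Cpt1b, the muscle carnitine palmitoyltransferase at the outer membrane, had 596, 378 and 371 CPM in 87 CMD, against 217, 269.7 and 268 CPM in 87 WT (0.83 ± 0.23, adjusted p = 0.0162). It had 257, 196 and 247 CPM in D2 CMD, against 359, 367 and 389.7 CPM in D2 WT (-0.67 ± 0.23, adjusted p = 0.0465). Neither pair of groups overlapped. In B6 and 67 its groups overlapped, with log2 fold changes of 0.14 and 0.39. It had 280.4, 293 and 379 CPM in B6 CMD, against 229, 248 and 387 CPM in B6 WT, and 231, 315 and 442 CPM in 67 CMD, against 239.7, 279 and 233 CPM in 67 WT. The call in 87 ended when only unique reads were counted.

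The carrier Slc25a20 and Mlycd, which removes the Cpt1 inhibitor malonyl-CoA, rose in 87 by 1.14 ± 0.30 and 1.51 ± 0.37 (adjusted p = 0.0102 and 0.00781). Crat, the matrix carnitine acetyltransferase, stood at 0.44 in 87 and -0.46 in D2 (adjusted p = 0.0752 and 0.0651), and its groups did not overlap in either background. Cpt1a, the liver form, had the opposite sign to most members, with -0.10 in 87 and 0.57 in D2 (adjusted p = 0.858 and 0.197).

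All 6 genes of uptake, binding, activation and thioester cleavage rose in 87, and 3 rose in 67 (Fabp3, Lpl and Acsl1). None of the 6 passed in B6 or D2. At an unadjusted p under 0.05 edgeR gave 0 of them in B6 and 1 in D2, and DESeq2 called 0 in B6 and 0 in D2. Fabp3, the fatty acid binding protein of heart and muscle, had 2137, 584 and 1318 CPM in 87 CMD, against 176, 190.3 and 222 CPM in 87 WT (log2 fold change 2.78 ± 0.57, adjusted p = 0.00235). It had 329.6, 614 and 979.7 CPM in 67 CMD, against 98.0, 275 and 156 CPM in 67 WT (1.86 ± 0.55, adjusted p = 0.0214).

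Every CMD library of 67 and 87 exceeded every WT library of its background in Fabp3. In B6 Fabp3 had 433, 405 and 679 CPM in CMD, against 94.9, 134 and 507 CPM in WT, where WT library 3 lay among the CMD libraries (1.04 ± 0.54, adjusted p = 0.183). In D2 it had 182, 337 and 239.5 CPM in CMD, against 486, 565 and 608 CPM in WT, groups far apart that did not pass (-1.13 ± 0.54, adjusted p = 0.141).

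Lpl, which muscle and adipocytes both express, had 2296, 529 and 1135 CPM in 87 CMD, against 626, 174 and 138 CPM in 87 WT (2.08 ± 0.68, adjusted p = 0.0351). It had 419, 611 and 1132 CPM in 67 CMD, against 131, 136 and 173 CPM in 67 WT (2.30 ± 0.69, adjusted p = 0.0224). In 67 the groups were separate, while in 87 WT library 13 was above CMD library 17. In D2 Lpl had 579, 474 and 116 CPM in CMD, against 698, 381 and 721 CPM in WT, which overlapped (-0.62 ± 0.66, adjusted p = 0.521). It had 602, 824 and 1080.3 CPM in B6 CMD, against 235, 253 and 957 CPM in B6 WT, where WT library 3 lay among the CMD libraries.

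Cd36, the long-chain fatty acid translocase, had 844, 223 and 379 CPM in 87 CMD, against 248, 103 and 138 CPM in 87 WT (1.56 ± 0.49, adjusted p = 0.0298). These groups overlapped through CMD library 17 and WT library 13. Its log2 fold changes elsewhere were 0.51 in B6, 1.03 in 67 and -0.17 in D2, with no call. Cd36 had 227, 279.9 and 324 CPM in B6 CMD, against 148, 110.4 and 327 CPM in B6 WT, and 152, 241 and 402 CPM in 67 CMD, against 103, 174 and 112 CPM in 67 WT. It had 310.4, 249.7 and 117 CPM in D2 CMD, against 264, 200.3 and 295 CPM in D2 WT, and the groups overlapped in all 3. Slc27a1, a fatty acid transporter, and Acsl1, the main acyl-CoA synthetase of muscle, rose in 87 by 1.51 ± 0.48 and 0.995 ± 0.289. Acot2, a mitochondrial thioesterase, had 314, 17.97 and 33.6 CPM in 87 CMD, against 5.65, 8.26 and 11.98 CPM in 87 WT (3.82 ± 0.83, adjusted p = 0.00349), a value set mostly by library 16.

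Adipocyte markers are given beside these genes because fat cells also hold Lpl, Cd36 and Acsl1. None of the 8 markers passed in B6, 67 or 87 and 1, Cfd, rose in D2, where 11.2% of all tested genes rose. Their summed level was 529.8, 108 and 982 CPM in 87 CMD libraries 16, 17 and 18, against 574, 52.5 and 118 CPM in 87 WT, and 1721, 2345 and 45.4 CPM in D2 CMD, against 414, 71.7 and 45.8 CPM in D2 WT. It was 328 to 656 CPM in B6 CMD, against 44.5 to 617 CPM in B6 WT, and 387 to 554 CPM in 67 CMD, against 109.9 to 175 CPM in 67 WT. None of the markers was at 0 in any group. D2 CMD library 24 was the lowest D2 library both in their sum (45.4 CPM) and in Lpl (116 CPM). D2 WT library 21 had nearly the same marker sum (45.8 CPM) and the highest Lpl of the D2 libraries (721 CPM). The part of fat cells in the values of Lpl, Cd36 and Acsl1 was not tested.

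The 5 receptor, fuel switch and uncoupling genes had 1 raised in 87, 1 lowered in B6 and 1 lowered in D2. Pdk4, which closes pyruvate dehydrogenase, had 7659, 624 and 909 CPM in 87 CMD, against 93.6, 114 and 374 CPM in 87 WT (log2 fold change 3.98 ± 0.93, adjusted p = 0.00553). It had 445, 854 and 1068 CPM in 67 CMD, against 46.0, 281 and 132 CPM in 67 WT (2.37 ± 0.87, adjusted p = 0.057). Both pairs of groups were separate, and library 16 exceeded the other 87 CMD libraries by far. In D2 Pdk4 had 558, 407 and 891 CPM in CMD, against 413, 941 and 673 CPM in WT, which overlapped (-0.13 ± 0.83, adjusted p = 0.929). It had 209, 363 and 924 CPM in B6 CMD, against 145, 137 and 449 CPM in B6 WT, which overlapped as well.

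Pdk2, another kinase of pyruvate dehydrogenase, fell in D2, with 473, 272 and 419 CPM in CMD, against 549, 594 and 619 CPM in WT (-0.60 ± 0.19, adjusted p = 0.0298). Its log2 fold changes were -0.22 in B6, -0.26 in 67 and 0.10 in 87, with overlap in each. Pdk2 had 404, 507 and 476 CPM in B6 CMD, against 494, 558 and 559 CPM in B6 WT. It had 341, 519 and 465 CPM in 67 CMD, against 566, 502 and 521 CPM in 67 WT, and 639, 602 and 469 CPM in 87 CMD, against 462, 609.7 and 523 CPM in 87 WT. Ppard, the receptor with the higher TPM, had 23.7, 30.1 and 26.3 CPM in B6 CMD, against 32.1, 45.4 and 48.3 CPM in B6 WT (-0.65 ± 0.18, adjusted p = 0.0167). The B6 groups did not overlap, and Ppard passed in no other background. Ppard had 25.8, 29.9 and 25.3 CPM in 67 CMD, against 23.6, 28.9 and 24.9 CPM in 67 WT, and 32.95, 29.4 and 21.4 CPM in 87 CMD, against 29.1, 36.5 and 29.8 CPM in 87 WT. It had 24.6, 23.7 and 33.6 CPM in D2 CMD, against 34.6, 36.0 and 31.7 CPM in D2 WT, and the groups overlapped in all 3.

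Ppara was low throughout, with 4.80, 3.56 and 1.99 CPM in D2 CMD, against 11.4, 6.27 and 8.51 CPM in D2 WT (-1.34 ± 0.61, adjusted p = 0.125). It had 8.57, 4.94 and 4.64 CPM in 87 CMD, against 1.88, 1.08 and 3.79 CPM in 87 WT (1.42 ± 0.62, adjusted p = 0.114), and 4.76, 3.10 and 9.18 CPM in 67 CMD, against 1.63, 1.48 and 2.34 CPM in 67 WT (1.64 ± 0.64, adjusted p = 0.0711). The groups were separate in all of these and none passed. Ppara had 2.35, 2.71 and 6.36 CPM in B6 CMD, against 1.04, 6.73 and 11.5 CPM in B6 WT, which overlapped. Ucp3, a mitochondrial carrier that follows fat supply, had 416, 124 and 130.2 CPM in 87 CMD, against 75.1, 87.2 and 152 CPM in 87 WT, which overlapped (1.09 ± 0.55, adjusted p = 0.172). Ucp3 had 42.7, 78.7 and 136 CPM in B6 CMD, against 67.6, 61.9 and 81.2 CPM in B6 WT, and 65.2, 167 and 102 CPM in 67 CMD, against 48.8, 184 and 90.7 CPM in 67 WT. It had 130.1, 70.1 and 153 CPM in D2 CMD, against 78.0, 223 and 117 CPM in D2 WT, again with overlap in each.

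**Figure D3:**
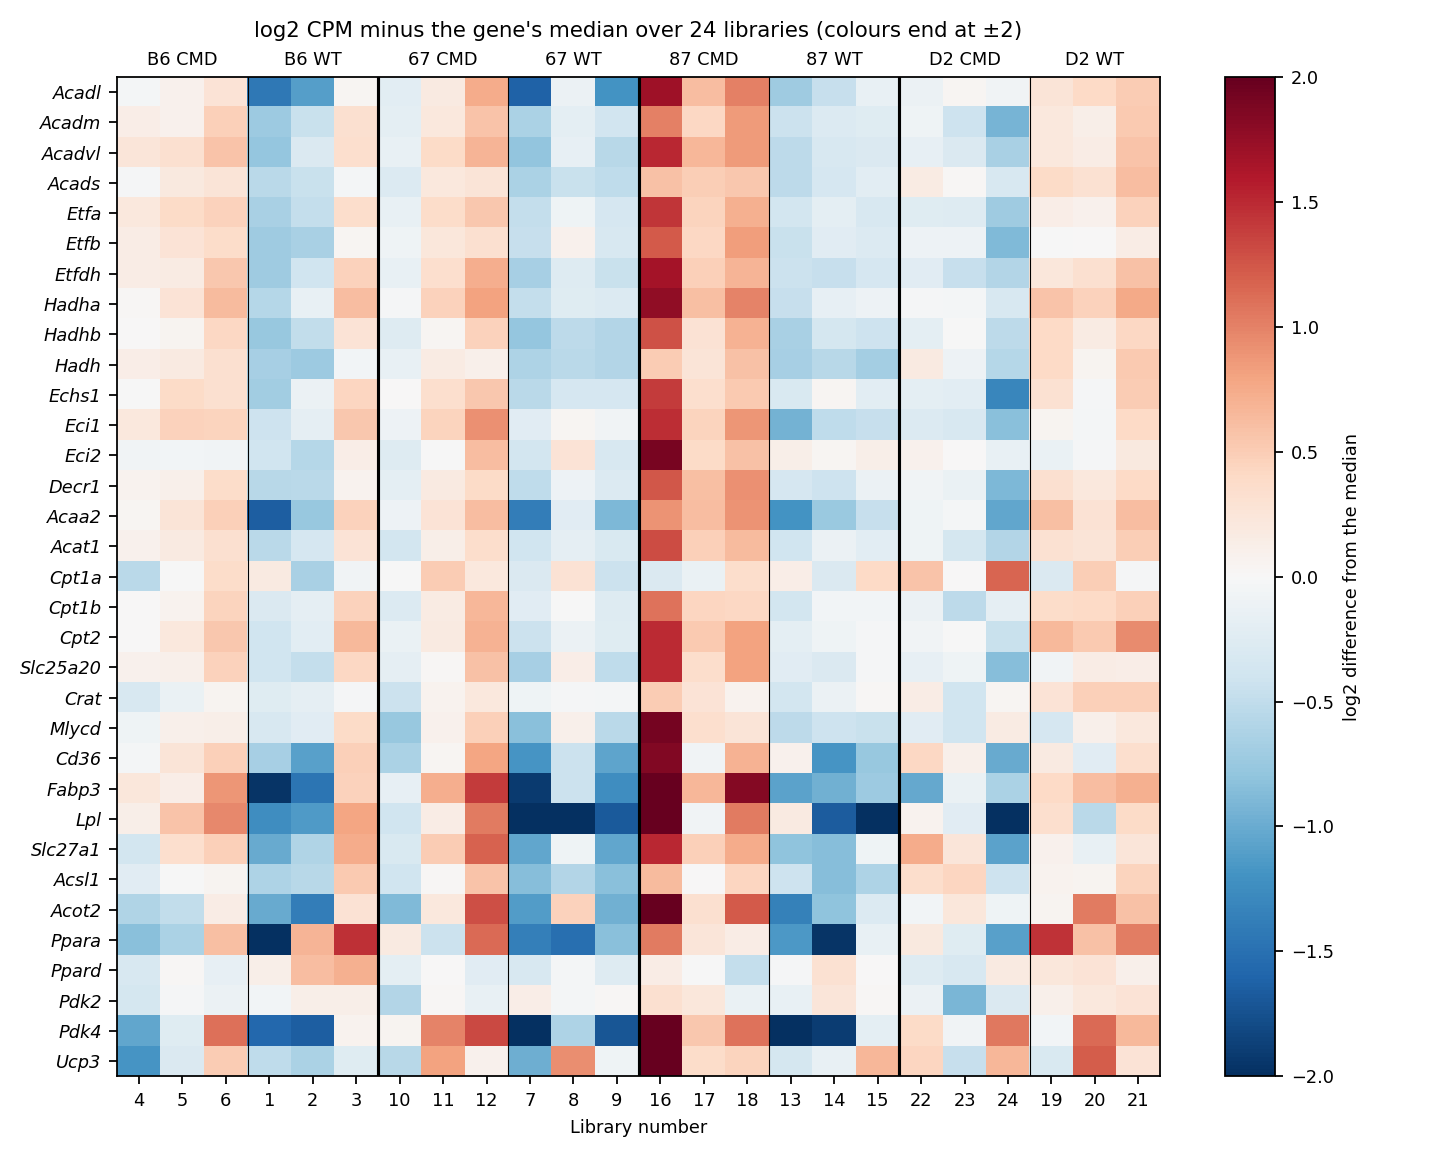
Level of each of the 33 genes in each of the 24 libraries, as the log2 CPM minus the gene's median over the libraries, with CMD left of WT in each background. Library 16 of 87 CMD is the highest of all libraries in 27 genes, and library 24 of D2 CMD the lowest in 10.

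The size of the CMD effect was tested between backgrounds directly. Of the 33 genes, 16 differed among the 4 backgrounds by the F test of the interaction, where 4.67% of all tested genes did. They were 6 of the 7 dehydrogenase and electron transfer genes, 7 of the 9 hydratase and thiolase genes, Cpt1b and Cpt2, and Fabp3, with none of the 5 regulators. Between D2 and 87, 22 genes differed, each with the lower effect in D2, where 4.88% of all tested genes were lower, 3.02% were higher and 7.9% differed in either direction. Fabp3 had the difference D2 minus 87 of -3.91 ± 0.78 on the log2 scale (adjusted p = 0.0042), Etfdh -2.24 ± 0.42 (adjusted p = 0.00244), Hadha -2.17 ± 0.41 (adjusted p = 0.0026) and Acads -1.37 ± 0.23 (adjusted p = 0.00118).

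The other pairs of backgrounds gave fewer calls. Between D2 and B6 3 genes differed (Acads, Hadh and Decr1; 3.62% of all tested genes differed and 2.5% were lower), and between D2 and 67 2 genes (Acads and Hadh; 1.28% differed), all lower in D2. Acads differed by -0.95 between D2 and B6 and by -1.08 between D2 and 67 (adjusted p = 0.0234 and 0.0222), and Hadh by -1.13 and -1.10 (adjusted p = 0.0185 and 0.0423). Among 67, 87 and B6 none of the 33 passed, where 0.00676% of all tested genes did for 67 against B6 and for 87 against B6 and 0.142% for 87 against 67. At an unadjusted p under 0.05 edgeR gave 2, 15 and 6 of the 33 in these pairs. The matching shares of all tested genes were not set beside these counts, which therefore show nothing particular to the 33. DESeq2 gave 0, 0 and 0. So 87 had more calls than 67 or B6, but its effect on a single gene was not shown to differ from theirs.

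**Figure D4:**
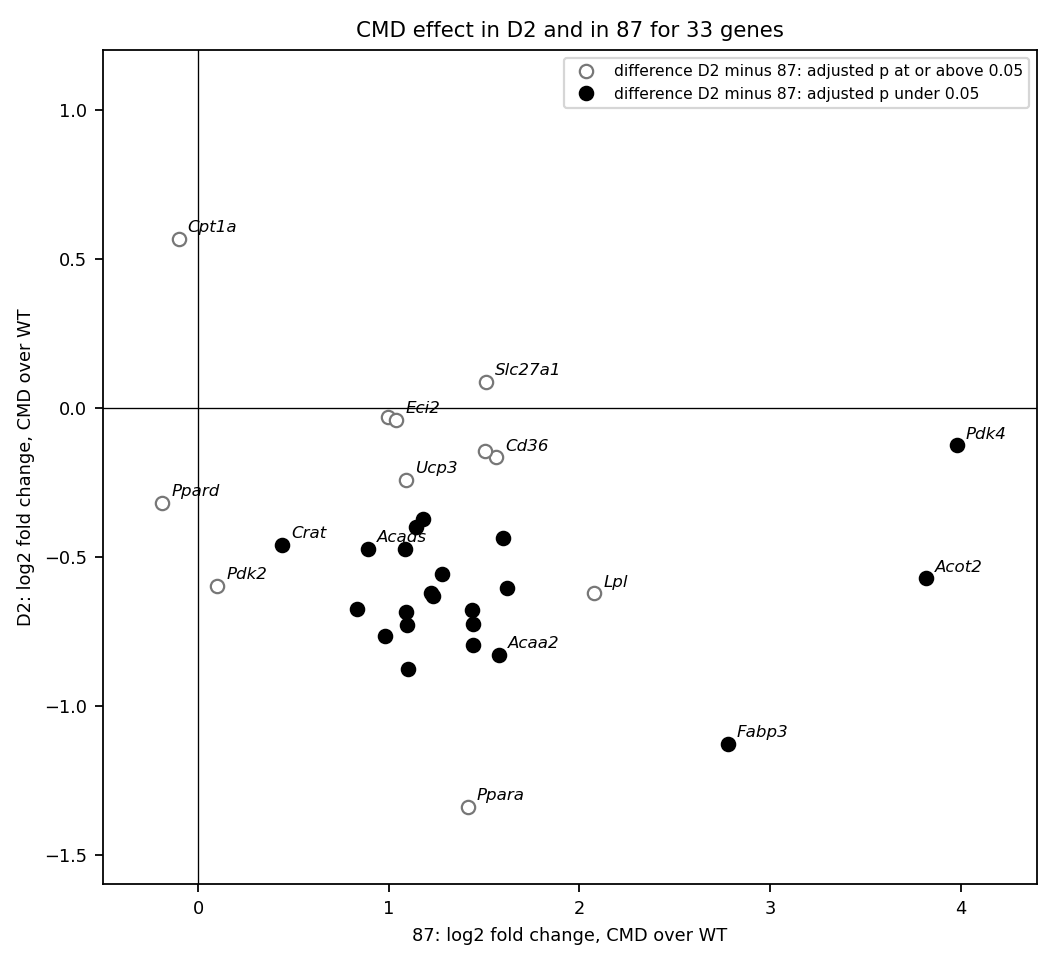
Log2 fold change, CMD over WT, of each of the 33 genes in D2 (y axis) against that in 87 (x axis). Filled points are the 22 genes whose effects differ between D2 and 87 at an adjusted p under 0.05, and 30 genes lie at the lower right, positive in 87 and negative in D2. Fabp3 stands at 2.78 in 87 and -1.13 in D2.

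A few libraries carried much of these results. Without library 16 of 87 CMD, 15 of the 27 genes raised in 87 remained, the median log2 fold change was 0.95, and no further gene joined. The 15 were all 7 dehydrogenase and electron transfer genes, Hadha, Hadhb, Hadh, Eci1, Decr1, Acaa2, Acat1 and Fabp3, and their calls held in every alternative computed. The calls of Echs1, Eci2, Cpt1b, Cpt2, Slc25a20, Mlycd, Cd36, Lpl, Slc27a1, Acsl1, Acot2 and Pdk4 in 87 ended without it. Between D2 and 87, 17 of the 22 differences held without library 16 and in every other alternative apart from the pair added after seeing the data.

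In D2 the lowered genes rested on few libraries and on how sex was treated. Without WT library 21 none of the 33 passed in D2, and with sex taken from the Y-linked reads none did, with 24 negative folds and a median of -0.39. With sex as labelled 18 fell. Of all 14789 tested genes 1335 fell in D2 without a sex term, 1091 with sex from the Y-linked reads and 1597 with sex as labelled. In the 2 added alternatives, D2 libraries were left out by their Y-linked reads, and the lone libraries were assumed to vary like the other groups. Without males 22 and 24, CMD library 23 stood against all 3 WT libraries, and Pdk2 and Crat fell in D2, with 29 negative folds of 33 and a median of -0.46. Of the 22 differences between D2 and 87, 13 remained, and 1 gene, Hadh, passed the F test. Without libraries 19, 21, 22 and 24, library 23 stood against library 20, and Pdk2 alone of the 33 fell, with 28 negative folds and a median of -0.44. The median log2 difference between D2 and 87 over the 33 was then -1.63. With 1 library in each D2 group, that fit cannot show whether effects differ between D2 and 87 or among the 4 backgrounds. All 3 D2 CMD libraries were below all 3 D2 WT libraries in 21 of the 33 genes, where 21.5% of all tested genes were. In 87 all CMD were above all WT libraries in 27 genes (15.5%), in 67 in 13 (22.2%) and in B6 in 4 (19.7%).

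In B6 the WT group was uneven. WT library 3 was the highest B6 WT library in 32 of the 33 genes, and the male WT library 1 the lowest in 25. The median coefficient of variation over the 33 genes was 15.2% in B6 CMD and 38.6% in B6 WT. In 87 it was 36.2% in CMD and 12.6% in WT. Without WT library 3, 11 genes rose in B6, and without WT library 1, WT library 2, CMD library 5 or CMD library 6 none did. Over all tested genes 1193 of 14789 rose in B6 with every library kept. That number was 790 of 14985 without WT library 3, 1128 of 14999 without WT library 1 and 500 of 14997 without WT library 2. In 67, 0 genes rose without WT library 7, the single male of that background, or without CMD library 12. No call of B6, 67 or D2 held in every alternative.

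Among WT libraries the group mean was highest in D2 for 30 of the 33 genes, where it was for 33.2% of all tested genes. Among CMD libraries the mean was highest in 87 for 32 (30% of all tested genes) and lowest in D2 for 25 (32.1%). The tests of WT levels gave shares of the 33 near those of all tested genes. By the F test over the WT groups 3 genes differed, Acads, Hadh and Ppara (adjusted p = 0.00142, 0.00293 and 0.046), where 8.66% of all tested genes did. Acads averaged 103 ± 11.8 CPM in D2 WT and 60.2 ± 11.5 in B6 WT (log2 difference 0.77 ± 0.16, adjusted p = 0.00426), and Hadh 211 ± 34.6 in D2 WT and 123 ± 33.2 in B6 WT (0.79 ± 0.18, adjusted p = 0.0104). These 2 of the 33 passed between D2 WT and B6 WT, where 7.38% of all tested genes did, 2.82% higher and 4.56% lower in D2 WT. D2 reads carry differences from the reference genome, and their part in the WT comparison was not tested.

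The summed level of the 33 genes was 6668, 5875 and 5264 CPM in D2 CMD libraries 22, 23 and 24, against 7906, 8216 and 9327 CPM in D2 WT. In 87 it was 24881.5, 8658 and 11457 CPM in CMD, against 4889.9, 4898 and 5359 CPM in WT. In 67 it was 5558, 8161 and 10698 CPM in CMD, against 3984, 5491 and 4486 CPM in WT. In B6 it was 6377.5, 7371 and 9360 CPM in CMD, against 4099.7, 4646 and 8436 CPM in WT. The D2 CMD sums thus overlapped with the WT sums of B6, 67 and 87, while the D2 WT sums were above those of 67 WT and 87 WT, and B6 WT library 3 was above D2 WT libraries 19 and 20.

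Genes of the respiratory chain and of fibre types were counted and summed beside the fatty acid genes. Their counts, and those of the cell markers below, are to be read against the shares of all tested genes. Of all tested genes 8.07% rose and 10.4% fell in B6, and 11.4% and 10.3% in 67. In 87 11.5% rose and 9.38% fell, and in D2 11.2% and 9.03%. Of 15 nuclear respiratory chain genes 14 rose in 87, 10 in B6 and 1 in 67, and 13 fell in D2. All 15 differed among backgrounds by the F test, where 4.67% of all tested genes did. Their summed level was 9050.2, 5749 and 5867 CPM in D2 CMD, against 10146, 10429 and 12911 CPM in D2 WT, and 13685, 13020.3 and 12166 CPM in 87 CMD, against 6416, 8021 and 7708 CPM in 87 WT. Library 16 lay close to libraries 17 and 18 in these genes. In whole muscle, fewer cells of a type and less RNA per cell cannot be told apart.

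Slow fibre markers, 9 genes with the slow myosin Myh7 among them, had 8 raised in 67, 4 in 87, 2 in B6 and none in D2. Their summed level was 265, 1728 and 995 CPM in D2 CMD, against 805, 122 and 2851 CPM in D2 WT, a range far wider than in the WT libraries of B6, 67 and 87, which spanned 34.2 to 211 CPM. In CMD they summed to 359 to 515 CPM in B6, 432 to 945 in 67 and 289 to 608 in 87. Of 11 fast fibre markers 8 fell in 67, 4 in 87, 4 in B6 and 1 in D2, and 2 rose in 67 and 2 in 87. The part of fibre type in the fatty acid genes was not tested.

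Markers of other cells were counted as well, against the shares of all tested genes given above. In lists this short a count of 1 is near those shares and shows no change of a cell type. Of 8 macrophage markers 5 rose in D2, 3 in 67, 1 in 87 and 1 in B6. Of 6 fibroblast markers 2 rose in 67 and 1 in D2, and 1 fell in 87. Of 9 endothelial markers 2 rose in B6 and 2 fell in D2. Of 7 skeletal muscle markers 2 fell in B6, 2 rose and 2 fell in 67, 3 rose and 1 fell in 87, and none passed in D2, where 2 had an unadjusted edgeR p under 0.05. They summed to 77516 to 122132 CPM in D2 CMD, against 132939 to 136427 in D2 WT, and to 90847 to 131076 in 87 CMD, against 134540 to 145647 in 87 WT. In all 4 backgrounds every CMD sum was below every WT sum.

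**Figure D5:**
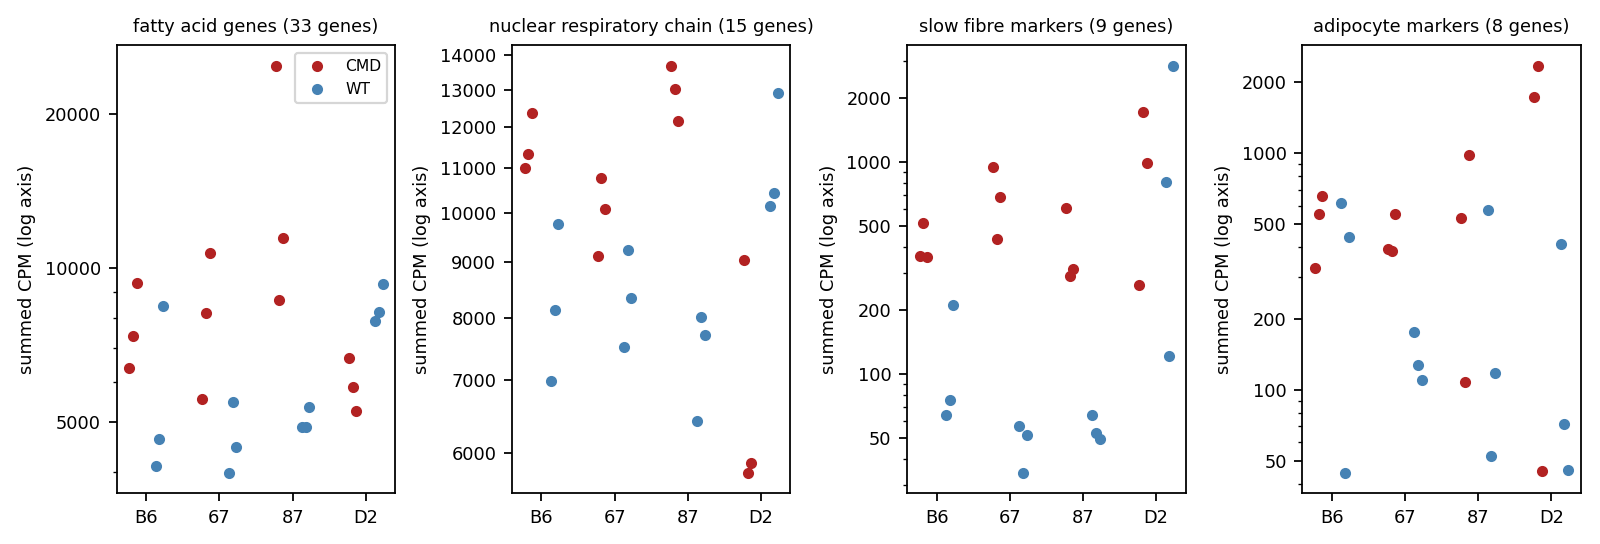
Summed CPM per library, on a log axis, of the 33 fatty acid genes, 15 nuclear respiratory chain genes, 9 slow fibre markers and 8 adipocyte markers, by background, with CMD left of WT. The fatty acid sums of D2 CMD (5264 to 6668 CPM) lie below those of D2 WT (7906 to 9327 CPM), and those of 87 CMD (8658 to 24881.5 CPM) above those of 87 WT (4889.9 to 5359 CPM).

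Genes around the pathway were counted by list, to be read against the shares of all tested genes given above, 8.07% raised and 10.4% lowered in B6, 11.4% and 10.3% in 67, 11.5% and 9.38% in 87, and 11.2% and 9.03% in D2. The list of 22 other mitochondrial oxidation and carnitine genes also held genes that are not oxidation enzymes, thioesterases and Hsd17b8 among them. Of the 22, 9 rose in 87, 5 in B6 and 2 in 67, and 9 fell in D2 and 1 in B6. By the F test 7 of them differed among backgrounds. Acot13, a mitochondrial thioesterase, had 46.7, 33.02 and 30.0 CPM in D2 CMD, against 59.4, 62.1 and 70.5 CPM in D2 WT (log2 fold change -0.81 ± 0.15, adjusted p = 0.00159), and rose in 87 by 0.53 ± 0.15. Mcee, an epimerase of odd-chain oxidation, fell in D2 by 0.81 ± 0.16 and rose in 87 by 0.50 ± 0.16 (adjusted p = 0.00261 and 0.0339). Acot9, a further thioesterase, rose in B6 by 0.80, in 67 by 0.90 and in 87 by 0.57, and Hsd17b8 rose in B6 by 0.54 and in 87 by 0.62.

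Of 17 peroxisomal oxidation genes 2 rose in 87, 1 rose and 1 fell in 67, and 2 fell in D2, counts near or below those shares. Ech1, the dienoyl-CoA isomerase of peroxisomes and mitochondria, had 136, 139.5 and 80.4 CPM in D2 CMD, against 217, 195 and 243 CPM in D2 WT (-0.88 ± 0.29, adjusted p = 0.0394). In 87 it had 556, 234 and 392 CPM in CMD, against 121, 130.2 and 127 CPM in WT (1.65 ± 0.30, adjusted p = 0.000995). Both pairs of groups were separate, and the effect differed by -2.52 ± 0.42 between D2 and 87 (adjusted p = 0.00118). Amacr, the racemase of branched chains, fell in D2 by 0.84 ± 0.19 and Crot, the octanoyl transferase, fell in 67 by 0.79 ± 0.22. Decr2, the peroxisomal dienoyl-CoA reductase, passed in no single background.

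Of 22 other uptake, activation and lipid droplet genes 3 rose in 87, 3 in D2, 2 in 67 and 1 in B6, and 1 fell in D2, again near or below those shares. Pnpla2, the triglyceride lipase, rose in 87 by 2.06 ± 0.45 and in 67 by 1.24 ± 0.44, and Acsl6 rose in 87 by 0.98 ± 0.20 and in D2 by 0.80 ± 0.20. Fabp5, a binding protein of fat cells and macrophages, rose in B6 by 1.27 ± 0.40 and in 67 by 1.31 ± 0.40. Plin5, which ties droplets to mitochondria, had 155, 18.6 and 47.6 CPM in 87 CMD, against 4.96, 5.81 and 8.35 CPM in 87 WT (3.53 ± 0.83, adjusted p = 0.00564), and was again highest in library 16.

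None of 10 fatty acid synthesis genes passed in any background, with edgeR. At an unadjusted p under 0.05 1, 0, 2 and 0 of the 10 passed in B6, 67, 87 and D2. Fasn, the fatty acid synthase, ranged from 57.5 to 1706 CPM over the D2 CMD libraries and from 27.5 to 1295 CPM over the D2 WT libraries. Acaca, the acetyl-CoA carboxylase of fat tissue, ranged from 12.2 to 178 CPM in D2 CMD and from 11.1 to 162 CPM in D2 WT. Acacb, the muscle carboxylase that makes malonyl-CoA beside Cpt1b, stood at -0.67 in B6 (adjusted p = 0.0694), and Mcat passed in no background.

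Among 21 transcriptional regulators, sirtuins and subunits of the energy sensor AMPK 8 rose in 87, 5 in 67 and 3 in B6, and 8 fell in D2, 6 in 67, 6 in B6 and 4 in 87. Ppargc1a, the coactivator of mitochondrial genes, had 19.5, 9.64 and 12.9 CPM in D2 CMD, against 27.3, 27.1 and 31.1 CPM in D2 WT (-1.03 ± 0.27, adjusted p = 0.0129). In 87 it had 46.9, 44.8 and 60.6 CPM in CMD, against 19.9, 16.01 and 21.1 CPM in WT (1.42 ± 0.27, adjusted p = 0.00149). The groups were separate in both backgrounds, and library 16 was not the highest.

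Perm1, a muscle regulator downstream of Ppargc1a, fell in D2 by 1.43 ± 0.33 and rose in 87 by 1.56 ± 0.33 (adjusted p = 0.0064 and 0.00295). The effect differed among backgrounds for both, with an adjusted p of 0.00441 for Ppargc1a and 0.00438 for Perm1. Rxra, the partner of the PPARs, fell in B6 by 1.08 ± 0.16, in 67 by 0.92 ± 0.16, in 87 by 0.99 ± 0.16 and in D2 by 0.55 ± 0.15. Tfeb, a regulator of lysosomes and lipid breakdown, fell by 0.91, 1.03, 1.08 and 0.76 in B6, 67, 87 and D2. For neither was a difference among backgrounds called (adjusted p = 0.323 and 0.601).

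Of 12 pyruvate dehydrogenase genes and regulators 8 rose in 87, 5 in B6, 4 in 67 and 1 in D2, and 5 fell in D2. Mpc2, a subunit of the pyruvate carrier, fell in D2 by 0.71 ± 0.17 and rose in 87 by 0.77 ± 0.17 and in B6 by 0.57 ± 0.17. Dld, the shared lipoamide dehydrogenase, fell in D2 by 0.61 ± 0.15 and rose in 87 by 0.73 ± 0.15. Pdhb, an E1 subunit, rose in 87 by 0.87 ± 0.15, in B6 by 0.64 ± 0.15 and in 67 by 0.43 ± 0.15. Pdk3, a kinase low in muscle, averaged 1.56 ± 0.213 CPM in D2 CMD and 0.684 ± 0.162 in D2 WT and rose there by 1.18 ± 0.35 (adjusted p = 0.0231).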

How the data were processed

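Left quadriceps muscle of 24 mice was measured as 24 libraries, 3 for each of 8 groups, from total RNA extracted with TRIzol and a stranded mRNA kit, read as pairs of 58 bases, per the labels' protocols. The authors deposited whole-number counts per Ensembl gene as total exon reads and as unique exon reads, and TPM scaled by exon length. The build was GRCm39 (mm39), per the submitters' processing notes; the sources used here name no aligner or counter. RPKM were not used.

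Counts of total exon reads were analysed by glmQLFit and glmQLFTest of edgeR 4.0.16 under R 4.3.3, on TMM-normalised libraries, with 8 group terms and no sex term, after filterByExpr (minimum count 10, minimum total 15; 14789 genes left, 6830 of 25369 listed genes at 0 in all libraries). P-values were adjusted by Benjamini-Hochberg over all tested genes, threshold 0.05. They set differences between group means against the spread between these samples, shared over the 8 groups and moderated across genes. The prior degrees of freedom averaged 3.74. CPM are deposited counts scaled by the TMM-adjusted library size. TPM, as deposited by the authors, served to compare levels between genes and to give D2 means under another scaling.

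The 33 genes, the other lists and the tests were chosen with earlier results of these data known. Values in every library are given for the 3 genes with the smallest p in each background and over the WT groups, the 5 with the smallest interaction p, and Cpt1b, Cd36, Lpl, Pdk4, Ucp3, Ppara and Ppard. Of the other lists the 2 genes with the smallest p for the mean effect and the 2 with the smallest interaction p are named. The library values of Acot2, beyond this rule, were chosen after they were seen.

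Alternatives were sex as labelled, sex from the summed CPM of 4 Y-linked genes (male if above 5), no filter, RLE factors, DESeq2 1.42.0, unique reads, libraries 16 and 23 left out together, and each library left out in turn. Added after seeing the data were D2 males by Y-linked reads left out, and D2 libraries against their sex label left out, both on the same 14789 genes. On simulated data edgeR recovered 41% to 44% of genes changed 2-fold in a background and 74% to 78% of those changed 4-fold, and by the interaction F test 19% and 65%. At most 4.84% of its calls were false. The simulated counts varied independently around 1 mean per gene, with 100 genes changed at each fold. They held no background or sex effect and no deviant library, so these shares need not hold for the real libraries. Of the members' reads the lowest share that was unique is given beside each gene concerned. Intervals are standard errors of the fit. Groups of 3 are too small for a test of single deviant libraries.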

Additional observations from a re-analysis of the deposited data

Results flagged for a closer look

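The CMD effect of 16 genes differed among the 4 backgrounds by the F test of the interaction in edgeR. The adjusted p was 0.00575 for Acads, 0.00657 for Hadh, 0.00831 for Decr1, 0.0111 for Acadvl, 0.0113 for Eci1, 0.0122 for Acat1, 0.0147 for Etfdh and 0.0154 for Hadha. For these 8 genes the difference passed in every alternative apart from the 2 added after seeing the data. It was 0.0182 for Cpt2, 0.0218 for Acadm, 0.022 for Etfa, 0.022 for Fabp3, 0.0221 for Hadhb, 0.0324 for Etfb, 0.0419 for Cpt1b and 0.0476 for Acaa2, and each of these ended in at least 1 of the other alternatives too. In the 2 added ones, without D2 males 22 and 24 Hadh alone passed, and without D2 libraries 19, 21, 22 and 24 none of the 33 did.

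A further 6 genes differed in the CMD effect between D2 and 87 without passing the F test. The adjusted p of that difference was 0.016 for Echs1, 0.019 for Acot2, 0.023 for Acadl, 0.0279 for Slc25a20, 0.0288 for Crat and 0.0425 for Pdk4. Each had the lower log2 fold change in D2, and Echs1 alone of these 6 passed in every alternative apart from the 2 added ones.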

How the results depend on the processing

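No paired analysis was possible because the groups share no replicate number. Over the 33 genes, all comparisons and all alternatives but 2, 13612 results kept their side of the threshold and direction, 401 lost and 309 gained a call, and 0 reversed. Counts that moved by over 1.5 times follow. With sex as labelled 18 fell in D2, 13 differed between D2 and B6 and 14 between D2 and 67, 12 over the WT groups and 4 between D2 WT and B6 WT. With sex from Y-linked reads 7 rose in B6, 0 fell in D2, 1 fell on average and 0 differed between D2 and 67. Without the filter 1 rose in B6, and with RLE factors 4 fell in D2. DESeq2 gave 14 raised in 67, 9 differing between D2 and B6, 15 between D2 and 67, 12 over the WT groups and 4 between D2 WT and B6 WT. Counts over all 14789 tested genes moved as well. Between D2 and 67, 189 of them differed without a sex term, 445 with sex as labelled, 76 with sex from Y-linked reads and 610 with DESeq2. Without libraries 16 and 23 together 15 rose in 87, 4 fell in D2, 7 differed between D2 and B6, 9 between D2 and 67 and 8 over the WT groups. Over all tested genes 1188 of 14919 rose in 87 without these 2 libraries, against 1696 of 14789 with them. The other 2 alternatives were added after seeing the data. Leaving out D2 males 22 and 24 gave 2 lowered in D2, 1 by the F test, 0 for D2 against B6, 0 for D2 against 67, 14 for D2 against 87 and 4 for D2 WT against B6 WT. Leaving out D2 libraries 19, 21, 22 and 24 gave 1 lowered in D2, and 0 by the F test, 0 for D2 against B6, 67 or 87, 0 over the WT groups and 0 for D2 WT against B6 WT, with fewer D2 libraries in each. The 27 raised in 87 were the same genes in both. The cause of the other moves was not tested.

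With each library left out in turn, the genes raised numbered 0 to 11 in B6, 0 to 12 in 67, 15 to 28 in 87, 0 in D2 and 18 to 26 on average. The genes lowered numbered 0 to 1 in B6, 0 in 67 and 87, 0 to 14 in D2 and 1 to 2 on average. Differences numbered 8 to 19 by the F test, 0 to 15 for D2 against B6, 0 to 14 for D2 against 67, 17 to 27 for D2 against 87, and 0 among B6, 67 and 87. They numbered 2 to 10 over the WT groups and 1 to 10 for D2 WT against B6 WT. The 14 in D2 came without 87 CMD library 16. The 8 by the F test came without D2 WT library 21 or D2 CMD library 24. The 10 over the WT groups came without B6 WT library 3. Calls by the F test ended for Cpt1b with unique reads. With 3 libraries a group, 2-fold changes were often missed on simulated data, so genes that passed no test cannot be called unaltered.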
